A study of Mus musculus with 24 samples.

Results

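Halofuginone was tested here for an effect on how messenger RNAs divide between light polysomes and the ribosome-free part of a sucrose gradient. For each gene, the light-minus-free difference in vehicle cells was taken from the light-minus-free difference in halofuginone cells, on the log2 scale. This double difference rests on 12 of the 24 libraries of the series, 3 in each of 4 groups. The groups were light polysomes and ribosome-free RNA from halofuginone-treated (HF) NIH/3T3 cells, and the same pools from vehicle-treated (Veh) cells. NIH/3T3 is an immortalised mouse embryonic fibroblast line. Per the labels, HF cells received 100 nM for 24 h at 37 °C, and Veh cells received PBS only. The light pool holds monosomes and small polysomes, and the ribosome-free pool holds free messenger ribonucleoproteins and ribosomal subunits. The libraries were paired by the tags in the column headers, 1 HF and 1 Veh gradient for each of 3 tags. The gradients with no tag (untagged) pooled fractions 1 to 2 as free and 3 to 6 as light, and their HF headers name 50 nM. The dose of those gradients is therefore not settled here. The rep2 and rep4 gradients pooled fractions 1 to 5 as free and 6 to 13 as light.

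Halofuginone blocks the prolyl site of the glutamyl-prolyl-tRNA synthetase, which charges tRNA with proline. Uncharged tRNA activates the kinase Gcn2, which phosphorylates the initiation factor eIF2. General initiation then falls while the transcription factor Atf4 is made, and Atf4 turns on genes for amino acid synthesis, transport and tRNA charging. An mRNA that loses ribosomes moves toward the light and free parts of a gradient. A move from heavy to light polysomes raises the light-minus-free split, and a move from light to free lowers it. Without the heavy pool, the split therefore has no fixed direction for initiation. A change of an mRNA's abundance alone moves both pools together and leaves the double difference near 0.

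The 12 libraries held between 10300517 and 21571893 counts. Mitochondrially encoded RNAs took 11.1% to 32.9% of counts in HF free libraries and 8.69% to 34.9% in Veh free libraries, with the lowest share in the untagged gradients. They took 2.45% to 7.71% of counts in HF light libraries and 2.41% to 4.98% in Veh light libraries. All 7 fibroblast markers examined (Col1a1, Col1a2, Pdgfrb, Thy1, Vim, S100a4, Fn1) reached 5 CPM (counts scaled to a common library total), with a summed level of 2867 to 6191 CPM in HF and 4158 to 7535 CPM in Veh libraries. None of 5 epithelial and none of 6 leukocyte markers did, and Epcam and Cd3e were at 0 throughout. Of 5 endothelial markers, Vwf reached 8.20 CPM in its highest library.

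The library labelled HF ribosome-free rep4 stood apart from its label. This was checked on 15 genes that were at least 5 CPM in the HF total RNA libraries of tags rep2 and rep3 and at most 0.5 CPM in all 3 Veh total RNA libraries. None of the 12 pool libraries was used to choose them. The third HF total RNA library, which carries a date-like tag and a header of 50 nM, was left out of the rule after its values were seen, since 0 genes met the rule with it included. Of these 15 genes, 10, 5 and 12 reached 1 CPM in the untagged, rep2 and rep4 HF light libraries, and 6 and 2 in the untagged and rep2 HF free libraries. In the library labelled HF free rep4 the number was 0, and in the Veh libraries it was at most 1. Their summed level was 39.5, 24.7 and 154 CPM in HF light and 39.1, 17.7 and 2.02 CPM in HF free libraries, in the order untagged, rep2, rep4, against 1.59 to 3.88 CPM in Veh libraries. Taf7l, a germ-cell paralogue of a general transcription factor subunit, had 319, 222 and 304 counts in HF light and 260, 105 and 3 counts in HF free libraries. It had 0, 0 and 6 counts in Veh light and 4, 2 and 7 counts in Veh free libraries. For Taf7l, 5 of 6 HF libraries thus lay above 100 counts, and the library labelled HF free rep4 lay among the Veh libraries. Taf7l is not typical of the 15 genes, as it had the most counts in the untagged and rep2 HF free libraries. It gave 20.4 and 11.97 CPM of their summed 39.1 and 17.7 CPM. Not every gene followed it, and Als2cl had 7, 1 and 7 counts in HF free libraries, in the order untagged, rep2, rep4. Another 29 genes were chosen the opposite way, at least 5 CPM in all 3 Veh and at most 0.5 CPM in the same HF total RNA libraries. Again, 0 genes met this rule with the third library included. In the order untagged, rep2, rep4, the summed level of the 29 was 130, 288 and 49.9 CPM in HF light and 164, 273 and 477 CPM in HF free libraries. It was 279, 480 and 609 CPM in Veh light and 351, 383 and 471 CPM in Veh free libraries. Both HF rep2 values lay below Veh of their tag but close to the lowest Veh value, so this set separates the treatments less clearly in rep2. In rep4, HF light lay far below Veh, while the library labelled HF free rep4 was at the Veh free level. Between the HF and Veh free libraries of a tag, the mean chi-square per gene was 35.6, 26.3 and 22.3 in untagged, rep2 and rep4. Between the light libraries it was 43.4, 49.9 and 146. The rep4 free value was thus the lowest, but not far below rep2 free. Even this lowest value is above sampling noise, so the rep4 free libraries are not copies of each other. Values are therefore given by tag or by library beside the fits, and many of the fits are also given without rep4.

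**Figure D1:**
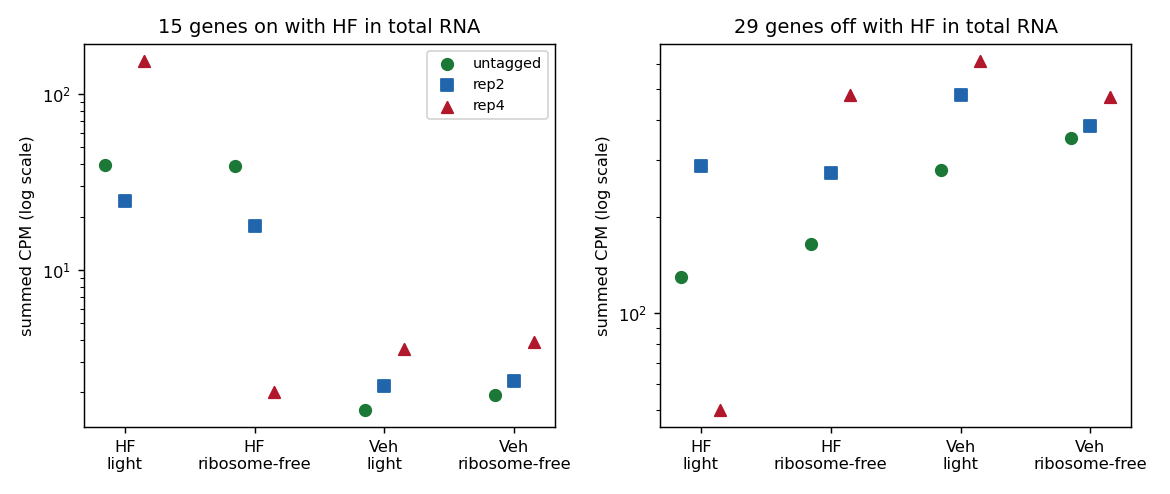
Summed CPM (log scale) of genes on or off with halofuginone in total RNA, in the HF light, HF ribosome-free, Veh light and Veh ribosome-free libraries, 1 point per library and tag. The rep4 point of HF ribosome-free (2.02 CPM on the left, 477 CPM on the right) lies with the Veh points in both panels. On the right, the rep2 points of HF light (288 CPM) and HF ribosome-free (273 CPM) also lie close to the lowest Veh point (279 CPM).

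No gene passed the test of the double difference. With edgeR's quasi-likelihood test and Benjamini-Hochberg adjustment over 13109 genes, 0 were called higher and 0 lower at an adjusted p under 0.05 (0% each way). At an unadjusted p under 0.05, 123 genes were higher (0.938%) and 96 lower (0.732%). DESeq2 called 0 genes, with 69 higher (0.526%) and 133 lower (1.01%) at an unadjusted p under 0.05. The median standard error of a gene's double difference was 0.33. The labels do not say which tag came from which culture. These p-values therefore measure the spread between the libraries, which may be technical. Leaving out tag rep4 lowered the median standard error to 0.24, and 5 genes were then called higher (0.0372%) and 6 lower (0.0447%) of 13434. Leaving out only the HF gradient of rep4, 2 were called higher (0.0148%) and 1 lower (0.00741%). Both of these fits keep fewer residual degrees of freedom than the 3 of the full fit. Their standard errors, adjusted p-values and calls, here and below, are therefore less certain.

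Each library was scaled to its own size, so a value is a share of its pool. Fewer cells and less RNA per cell cannot be told apart. A shift of most mRNAs between light and free would be removed by this scaling and was not measured here. Medians over all genes near 0 are largely set by the scaling and do not report on such a shift. The tags differed widely in how large the double differences were. In the untagged gradients, 257 genes (1.96%) had a double difference at least 2-fold up and 232 (1.77%) at least 2-fold down. In rep2 these numbers were 318 (2.43%) and 232 (1.77%). In rep4 they were 1527 (11.6%) and 1773 (13.5%). The SD of the double difference over genes was 0.43 in untagged, 0.47 in rep2 and 0.98 in rep4. The parts of this difference differed by pool. The HF effect in the light pool had an SD over genes of 0.42, 0.38 and 0.89 in untagged, rep2 and rep4, while in the free pool it was 0.49, 0.48 and 0.39. Across the 13109 genes, which are not independent replicates, the HF effects in light and free correlated at 0.55 in untagged and 0.41 in rep2, and at -0.03 in rep4. The light effects of different tags correlated at 0.37 to 0.55. The free effects correlated at 0.29 between untagged and rep2, but at -0.03 and 0.02 between rep4 and these. The double differences correlated at 0.04, 0.00 and 0.03 between pairs of tags. So 26.2% of genes had the same sign in all 3 tags, and 5 were at least 2-fold higher and 3 at least 2-fold lower in each.

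**Figure D2:**
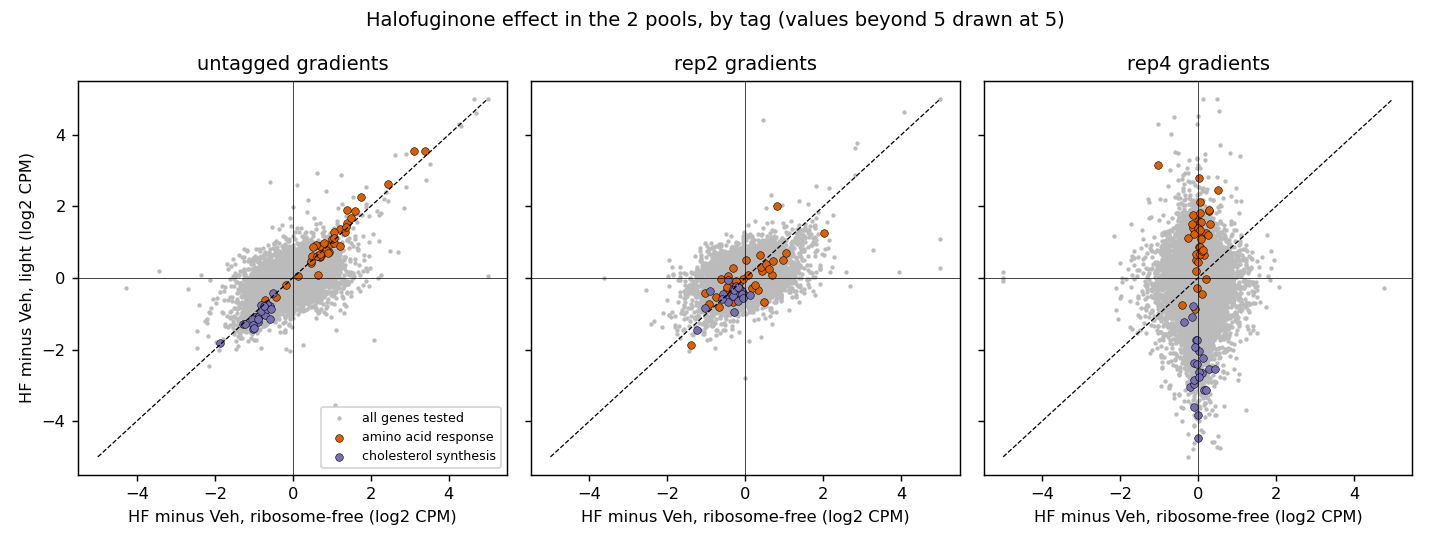
Each point is a gene. The y axis gives HF minus Veh in light polysomes and the x axis HF minus Veh in ribosome-free RNA (log2 of CPM plus 0.5), for the untagged, rep2 and rep4 gradients, with amino acid response genes in orange, cholesterol synthesis genes in purple and equality dashed. Genes lie along the diagonal in untagged (correlation 0.55), less so in rep2 (0.41), and along the vertical in rep4 (-0.03), where the ribosome-free effect of the coloured genes is near 0.

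Genes of the amino acid response, the Atf4 program, were in the median higher with HF than with Veh in light polysomes of untagged and rep4, but in ribosome-free RNA of untagged only, as values with no test per tag. Of 40 genes on the list, 38 were tested and 0 were called. Their median double difference was 0.33, against 0.03 over all genes, with 34 above 0. Over all 13109 genes, 6988 lay above 0 and 6121 below, which is the background for such counts in this and later lists. Above 0 in untagged, rep2 and rep4 were 20, 18 and 33 of the 38 genes. By tag the median was 0.03 in untagged, -0.09 in rep2 and 1.21 in rep4, and without rep4 the fitted median was -0.07. The list's median HF effect in light was 0.89, -0.17 and 1.23 in untagged, rep2 and rep4, and in free it was 0.88, -0.08 and 0.04. In total RNA the HF effect was 0.21 in the libraries of the tag with a date-like number, whose HF header names 50 nM, 1.95 in rep2 and 1.91 in rep3. At least 2-fold higher double differences were found for 22 of the 38 genes in rep4 (11.6% of all genes), 1 in rep2 and 0 in untagged.

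The promoters of 4 genes of this list are shown because their genes carry the element that Atf4 binds with C/EBP partners, and because their HF effects were alike in the light and free pools of the untagged gradients (Atf3, a stress transcription factor, 0.43 in light and 0.47 in free); they were chosen after these values were seen. The element was searched as TGATGNAA on both strands, from 250 bases before to 50 after the RefSeq start (GRCm38.p6). It was present in 12 of the 34 list members with a promoter in the table (35.3%), against 4.51% of all 27025 genes there. Capitals mark the matches, and each stretch is written 5′ to 3′ on the strand of the gene.
Asns, chr6:7693210-7693259, minus strand: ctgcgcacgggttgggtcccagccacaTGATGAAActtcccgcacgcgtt
Slc7a11, chr3:50443645-50443694, minus strand: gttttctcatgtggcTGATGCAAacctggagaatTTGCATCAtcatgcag
Atf3, chr1:191183409-191183458, minus strand: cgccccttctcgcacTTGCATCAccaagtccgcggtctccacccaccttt
Chac1, chr2:119351034-119351083, plus strand: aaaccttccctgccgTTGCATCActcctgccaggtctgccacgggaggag
Slc7a11 holds the match once on each strand, Asns on the strand of the gene, and Atf3 and Chac1 on the opposite strand. A match is a sequence description and not a binding site.

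Asns, which makes asparagine and is a standard Atf4 target (chr6:7675169-7693254, minus strand), had 202, 56.4 and 223 CPM in HF light and 243, 57.9 and 76.8 CPM in HF free libraries. It had 105, 62.8 and 92.7 CPM in Veh light and 125, 65.4 and 81.0 CPM in Veh free libraries, in the order untagged, rep2, rep4. HF was thus high in both pools in untagged, level with Veh in rep2, and high in light alone in rep4. The double difference was -0.02, 0.02 and 1.34 by tag, with a fitted value of 0.44 ± 0.42 (SE; edgeR adjusted p = 0.974), and -0.05 ± 0.18 without rep4. Trib3, a pseudokinase that feeds back on Atf4 (chr2:152337422-152344032), had 157, 28.8 and 380 CPM in HF light and 96.1, 14.02 and 62.2 CPM in HF free libraries. In Veh it had 12.9, 35.8 and 126 CPM in light and 8.77, 17.8 and 61.7 CPM in free libraries. HF exceeded Veh about equally in both pools in untagged (3.56 in light and 3.38 in free, log2), and the double difference was 0.17, 0.02 and 1.58 by tag. The fitted value was 0.61 ± 0.41 (edgeR adjusted p = 0.974), and 0.05 ± 0.20 without rep4.

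Ddit3, the stress transcription factor CHOP (chr10:127290774-127296288), had 338, 136 and 1028 CPM in HF light and 480, 90.4 and 236 CPM in HF free libraries, against 171, 226 and 363 CPM in Veh light and 231, 172 and 190 CPM in Veh free libraries. In rep2 both HF pools lay below Veh. Its double difference was -0.07, 0.20 and 1.18 by tag. Chac1, which degrades glutathione, likewise had an HF effect of -1.86 in light and -1.41 in free of rep2, while in untagged the effects were 1.38 and 1.22. Slc7a11, the cystine transporter, had 8.23, 3.84 and 25.2 CPM in HF light and 4.71, 2.51 and 1.51 CPM in HF free libraries. It had 0.91, 1.32 and 3.22 CPM in Veh light and 0.47, 0.24 and 1.47 CPM in Veh free libraries. Its double difference was 0.20, -0.76 and 2.75 by tag, and the fitted 0.49 ± 0.97 became -0.82 ± 0.68 without rep4. The member of the list with the smallest p was Nupr1, a stress-induced chromatin protein, at 0.65 ± 0.30 (0.04, 0.60 and 1.31 by tag, and 0.27 without rep4).

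**Figure D3:**
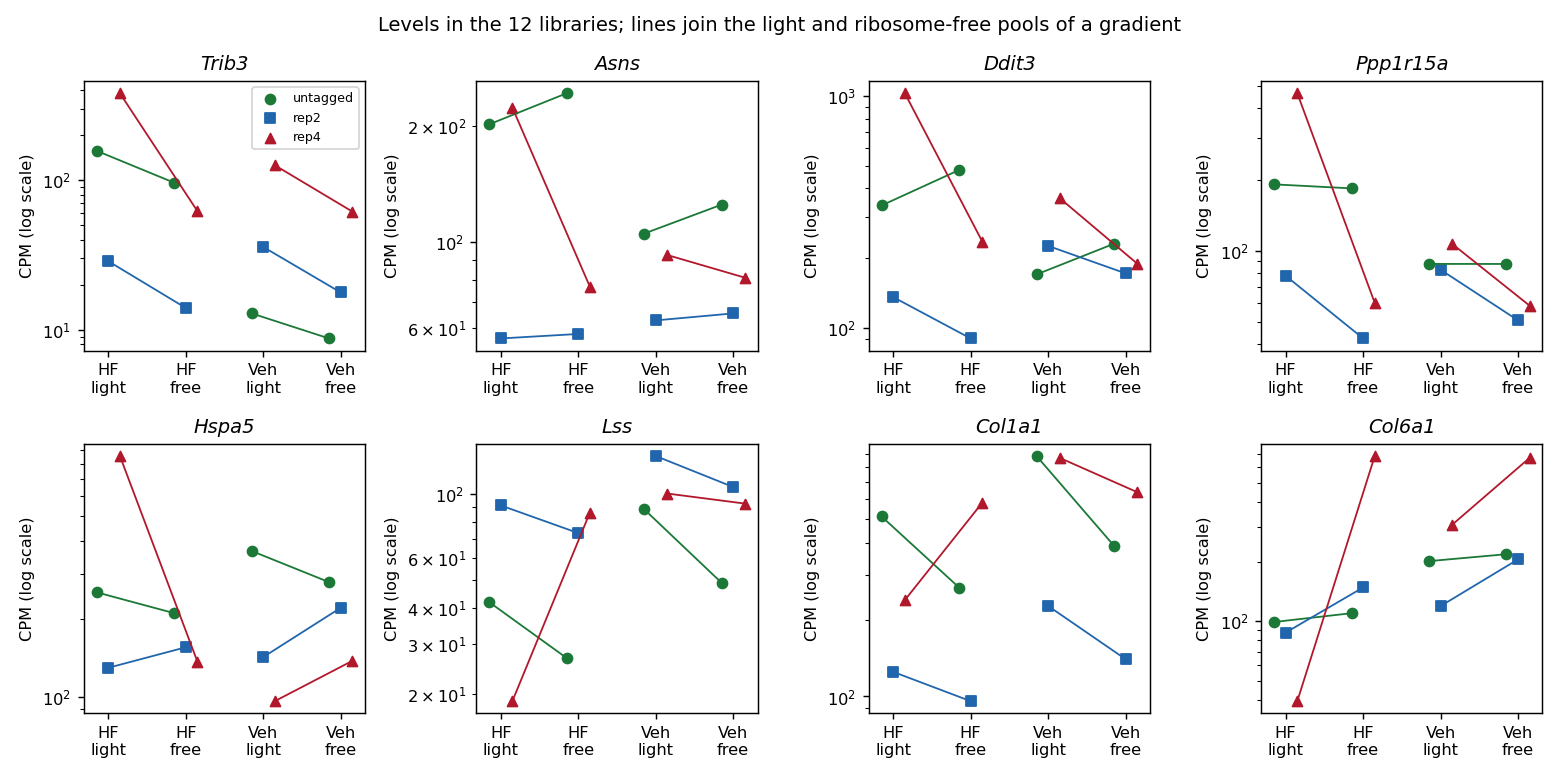
CPM (log scale) of 8 genes in the 12 libraries, with HF left of Veh and light left of ribosome-free, and lines joining the pools of a gradient. The HF and Veh lines of untagged and of rep2 run nearly parallel, whereas the HF and Veh lines of rep4 differ in slope in every panel (Col6a1 39.4 CPM in HF light and 683 CPM in HF free, against 307 CPM in Veh light and 668 CPM in Veh free).

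The mRNAs with upstream reading frames that hold or release ribosomes under eIF2 phosphorylation are the ones for which a change of split was the direct question. Of 14 listed, 13 were tested and 0 called, with a median double difference of 0.29 and medians by tag of -0.07, 0.15 and 0.71. Atf4 itself (chr15:80255184-80257541), whose main reading frame is translated when initiation falls, had 1548, 1461 and 1227 CPM in HF light and 1729, 1673 and 2592 CPM in HF free libraries. It had 1276, 1787 and 1828 CPM in Veh light and 1472, 2263 and 2537 CPM in Veh free libraries. More Atf4 CPM was in free than in light in all 6 gradients, and the double difference was 0.05, 0.15 and -0.61 by tag. The fitted value was -0.14 ± 0.30 (edgeR adjusted p = 0.978), and 0.05 ± 0.22 without rep4. Atf5, a related factor with a similar leader, had 1043, 569 and 898 CPM in HF light and 610, 420 and 662 CPM in HF free libraries, against 487, 362 and 640 CPM in Veh light and 305, 325 and 687 CPM in Veh free libraries. Its double difference had the same sign in each tag, at 0.10, 0.28 and 0.54 (fitted 0.31 ± 0.24, edgeR adjusted p = 0.974, and 0.14 without rep4). Ppp1r15a, the phosphatase subunit Gadd34 that restores eIF2, had 191, 78.2 and 464 CPM in HF light and 183, 42.4 and 59.9 CPM in HF free libraries, against 87.8, 82.9 and 107 CPM in Veh light and 87.7, 50.6 and 58.4 CPM in Veh free libraries. Its double difference was 0.06, 0.17 and 2.08 by tag.

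Cytosolic aminoacyl-tRNA synthetases charge tRNAs, and many of their genes are Atf4 targets. All 20 were tested and 0 called, with a median of 0.38, and 19 of 20 above 0. Above 0 in untagged, rep2 and rep4 were 11, 6 and 18 of the 20. The medians by tag were 0.02, -0.14 and 1.06, and -0.10 without rep4. Eprs, the enzyme that halofuginone inhibits (chr1:185363044-185428360), had 88.7, 56.0 and 171 CPM in HF light and 47.1, 40.5 and 46.4 CPM in HF free libraries, against 46.3, 49.0 and 74.5 CPM in Veh light and 25.5, 28.8 and 47.5 CPM in Veh free libraries. HF exceeded Veh in light in every tag and in free in untagged and rep2. The double difference was 0.06, -0.29 and 1.23 by tag, fitted at 0.33 ± 0.37 (edgeR adjusted p = 0.974), and -0.16 ± 0.18 without rep4. Qars, the glutaminyl-tRNA synthetase, was the 1 member below 0, at -0.35 ± 0.30 (-0.02, -0.17 and -0.86 by tag, and -0.14 without rep4). Of 17 mitochondrial synthetases, all tested, 10 were above 0 with a median of 0.14 (0.01, -0.13 and 0.26 by tag). Rars2 for arginine had the smallest p, at 0.83 ± 0.29 (0.39, 0.75 and 1.24 by tag, and 0.54 without rep4). Of 25 amino acid transporters, 22 were tested, with a median of 0.02 whose sign turned with the scaling (-0.07, -0.04 and 0.42 by tag). Slc6a9, the glycine transporter, was at 0.89 ± 0.43 (0.26, 0.49 and 1.90 by tag, and 0.32 without rep4).

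Cholesterol synthesis genes, which are driven by SREBP transcription factors, lay below 0 in the fit, with values far from 0 in rep4 alone. Of 24 listed, 23 were tested, 0 were called, and all 23 had a double difference below 0, with a median of -0.95. The medians by tag were -0.19 in untagged, -0.08 in rep2 and -2.74 in rep4. Without rep4 the fitted median was -0.18. In the light pool the HF effect was -1.07, -0.48 and -2.55, and in the free pool it was -0.86, -0.31 and -0.02. At least 2-fold lower double differences were found for 20 of 23 genes in rep4 (13.5% of all genes) and for 0 in untagged and rep2. A total of 13 of the 23 were below 0 in all 3 tags, against 12.1% of all genes. In rep4, 0 of the 23 were above 0, so this count rests on untagged and rep2. In both of those tags, 3237 of all 13109 genes were below 0, which is the nearer background. Lss, the lanosterol synthase (chr10:76531588-76557138), had 42.0, 91.4 and 18.9 CPM in HF light and 26.8, 73.2 and 86.2 CPM in HF free libraries, against 88.7, 136 and 101 CPM in Veh light and 49.1, 106 and 92.8 CPM in Veh free libraries. HF lay below Veh in light in every tag, and by nearly the same ratio in free in untagged and rep2. The double difference was -0.21, -0.04 and -2.27 by tag, fitted at -0.82 ± 0.60 (edgeR adjusted p = 0.974) and -0.17 ± 0.18 without rep4. Pmvk, a mevalonate pathway kinase, had the smallest p of the list, at -1.26 ± 0.53 (-0.19, -0.64 and -2.98 by tag, and -0.45 without rep4).

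Collagens and other matrix genes, for which halofuginone has been studied as an agent against fibrosis, lay below 0 in the fit for most members. Of 23 collagen genes, 21 were tested, 16 of them were below 0 and 0 were called, with a median of -0.30 and medians by tag of -0.02, 0.06 and -1.47. Col1a1, a chain of type I collagen (chr11:94936224-94953042), had 510, 125 and 239 CPM in HF light and 268, 95.9 and 578 CPM in HF free libraries, against 882, 227 and 867 CPM in Veh light and 391, 140 and 636 CPM in Veh free libraries. Its double difference was below 0 in every tag, at -0.24, -0.31 and -1.72, fitted at -0.75 ± 0.44 (edgeR adjusted p = 0.974) and -0.33 ± 0.19 without rep4. The partner chain Col1a2 gave -0.11, -0.10 and -0.67. Col3a1, type III collagen, gave -0.19, 0.20 and -2.56. Col6a1, a chain of beaded-filament collagen (chr10:76708792-76726168), had 99.0, 87.5 and 39.4 CPM in HF light and 110, 148 and 683 CPM in HF free libraries, against 201, 119 and 307 CPM in Veh light and 218, 205 and 668 CPM in Veh free libraries. The double difference was -0.03 and 0.03 in untagged and rep2 and -2.98 in rep4. Of 39 other matrix genes, 32 were tested and 24 were below 0 (median -0.47, and -0.07, -0.12 and -1.10 by tag). In contrast Fn1, fibronectin, had 1218, 360 and 741 CPM in HF light and 836, 373 and 181 CPM in HF free libraries, against 1130, 352 and 348 CPM in Veh light and 946, 328 and 214 CPM in Veh free libraries (0.29, -0.15 and 1.32 by tag). Of 26 collagen-modifying genes, 25 were tested, with a median of -0.16 (0.00, -0.11 and -0.03 by tag). Loxl3, a lysyl oxidase, had the smallest p, at -0.98 ± 0.38 (-0.10, -0.74 and -2.11 by tag, and -0.45 without rep4).

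Chaperones of the endoplasmic reticulum differed between tags within the light pool itself. Of 24 listed, 23 were tested, 0 called and 16 above 0, with a median of 0.22 and medians by tag of 0.00, -0.08 and 0.84. Their median HF effect in light was -0.45, -0.15 and 0.82, and in free it was -0.47, -0.09 and 0.06. In total RNA it was -0.44, 0.28 and 0.32 in the libraries with the date-like tag, rep2 and rep3. Hspa5, the lumenal chaperone BiP (chr2:34771970-34777547), had 254, 130 and 856 CPM in HF light and 211, 156 and 137 CPM in HF free libraries, against 368, 143 and 96.6 CPM in Veh light and 279, 222 and 138 CPM in Veh free libraries. HF light rep4 was the highest of all 12 libraries. The double difference was -0.13, 0.37 and 3.15 by tag, fitted at 1.08 ± 0.74 (edgeR adjusted p = 0.974) and 0.07 ± 0.19 without rep4. Hsp90b1, its partner GRP94, gave 0.03, 0.38 and 1.89. The 31 proteasome subunits, all tested, gave medians of 0.01, -0.22 and 0.78 by tag (fitted 0.17, 24 above 0), and Psmc6, an ATPase subunit, had the smallest p, at 0.63 ± 0.34 (0.06, 0.59 and 1.22 by tag, and 0.27 without rep4).

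Lists of different cell cycle phases lay on opposite sides of 0 in rep4 and near 0 in the other tags. All 28 mitosis genes were tested and 26 lay below 0, with a median of -0.30 and medians of 0.01, 0.11 and -0.94 by tag. All 38 DNA replication genes were tested and 34 lay above 0, with a median of 0.22 and medians of 0.06, -0.02 and 0.53 by tag. None of either list was called. Ccnb2, a mitotic cyclin, gave -0.56 ± 0.37 (-0.11 without rep4), with 15.3, 15.5 and 4.35 CPM in HF light, 33.0, 19.7 and 12.3 CPM in HF free, 18.5, 13.4 and 13.1 CPM in Veh light and 38.3, 16.5 and 11.3 CPM in Veh free libraries. Of 33 replication-dependent histone genes, whose mRNAs lack a poly(A) tail, 8 were tested, with 7 below 0.

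**Figure D4:**
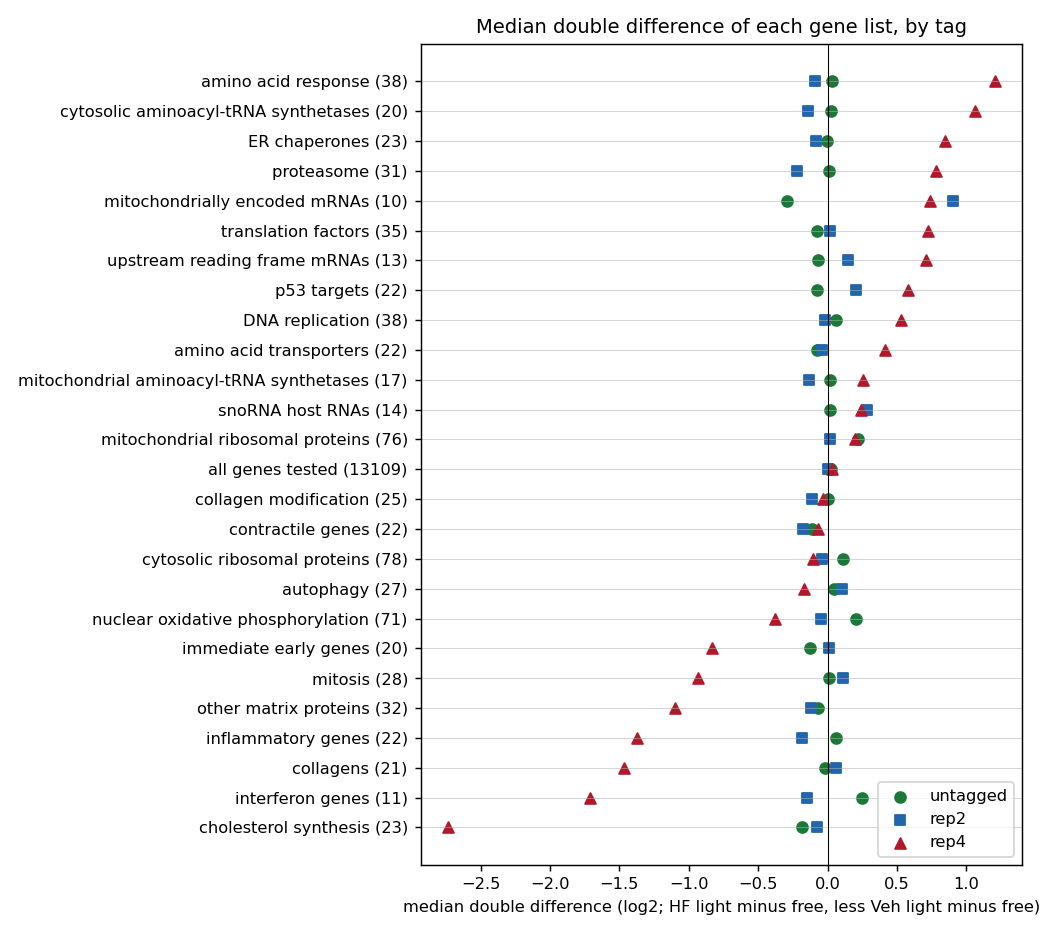
Median double difference (log2) of each gene list with at least 10 tested members, 1 point per tag, with the number of genes tested in parentheses and lists ordered by the rep4 value. The untagged and rep2 points lie close to 0 for most lists, while rep4 runs over a range of -2.74 (cholesterol synthesis) to 1.21 (amino acid response).

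For ribosomal protein mRNAs, the values of the split lay farther apart between tags than between treatments. The median light-minus-free difference of 78 tested cytosolic ribosomal protein genes (of 79) was -1.41, -0.33 and -0.18 in HF gradients and -1.58, -0.28 and -0.04 in Veh gradients. The order of the tags was the same in both treatments, and the lowest values were those of the gradients that pooled fractions 1 to 2 as free. Their double difference had a median of 0.00 (38 above 0 and 40 below), and 0.11, -0.04 and -0.10 by tag. The sign of the fitted median turned when mitochondrially encoded genes were left out. Rpl3, a protein of the large subunit, had 1289, 1294 and 812 CPM in HF light and 2195, 1580 and 1243 CPM in HF free libraries, against 1098, 1078 and 955 CPM in Veh light and 1891, 1442 and 1172 CPM in Veh free libraries. Its double difference was -0.06 ± 0.24 (0.02, 0.13 and -0.32 by tag). Eef1a1, the factor that brings charged tRNA to the ribosome, gave -0.28 ± 0.29 (-0.13, 0.04 and -0.75 by tag, and -0.09 without rep4). Of 35 translation factors, all tested, 26 were above 0 (median 0.22, and -0.07, 0.02 and 0.73 by tag), and Eif3a, a scaffold of initiation factor eIF3, gave 0.38, 0.30 and 0.99. Of 77 mitochondrial ribosomal protein genes, 76 were tested and 56 were above 0 (median 0.14, and 0.22, 0.02 and 0.20 by tag).

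Mitochondrially encoded mRNAs are translated inside mitochondria, so their place in a cytosolic gradient does not report on cytosolic ribosomes. All of their median light-minus-free differences were below 0, at -2.04, -3.56 and -3.11 in HF and -2.13, -4.05 and -3.97 in Veh gradients. Of 13 genes, 10 were tested and mt-Nd3, mt-Nd4l and mt-Atp8 were at 0 in all libraries. The median double difference of the 10 was 0.52, and -0.29, 0.90 and 0.74 by tag. mt-Co1, a catalytic subunit of cytochrome oxidase, had the same sign in every tag. It had 4965, 13208 and 2605 CPM in HF light and 9519, 18484 and 5699 CPM in HF free libraries, against 4740, 11076 and 3056 CPM in Veh light and 11820, 26930 and 8669 CPM in Veh free libraries. HF was below Veh in the free pool of every tag, and the double difference was 0.38, 0.80 and 0.37 (fitted 0.52 ± 0.27, edgeR adjusted p = 0.974). mt-Cytb, of complex III, gave 0.25, 0.84 and 0.62 by tag (fitted 0.57 ± 0.35).

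The smallest adjusted p in the whole table, 0.118 with edgeR, belonged to mt-Co3 at -8.52 ± 0.83. The counts of mt-Co3 were low in all libraries but HF free rep2. It had 0, 6 and 0 counts in HF light and 25, 2261 and 7 counts in HF free libraries, against 31, 4 and 1 counts in Veh light and 1, 4 and 3 counts in Veh free libraries. mt-Co2, at 5.14 ± 1.27, had 2, 380 and 0 counts in HF light and 0, 308 and 12 counts in HF free libraries, against 0, 11 and 0 counts in Veh light and 63, 208 and 58 counts in Veh free libraries. mt-Atp6 had 21169 counts in Veh free rep4, and 0 to 1591 in the other 11 libraries. These genes share sequence with nuclear copies, of which Gm10925, Gm28437, Gm28661 and Gm29216 were among the genes called without rep4. How reads that match several places were counted is not given in the sources used here, so these values are uncertain. Among the 11 genes called without rep4, the nuclear gene not named as a predicted gene or pseudogene was Ccdc174, at 0.79 ± 0.19 (edgeR adjusted p = 0.0359), a gene chosen here after its value was seen. It had 414, 530 and 432 counts in HF light and 445, 398 and 564 counts in HF free libraries, against 315, 458 and 372 counts in Veh light and 551, 527 and 556 counts in Veh free libraries.

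The nuclear genes described next were chosen for a small p and the same sign in all 3 tags, a sign pattern that 14.1% of all genes had above 0 and 12.1% below 0. None passed the test. Snrnp48, a protein of the minor spliceosome (chr13:38204938-38227665), had 9.47, 17.6 and 23.8 CPM in HF light and 21.7, 31.6 and 26.0 CPM in HF free libraries, against 5.26, 11.2 and 8.03 CPM in Veh light and 15.8, 49.7 and 33.0 CPM in Veh free libraries. HF exceeded Veh in light in every tag, and the double difference was 0.35, 1.28 and 1.85 (fitted 1.21 ± 0.34, edgeR adjusted p = 0.974, and 0.84 without rep4). Klf4, a transcription factor of the immediate early class (chr4:55527143-55532466), had 82.9, 51.3 and 31.1 CPM in HF light and 41.1, 38.3 and 12.4 CPM in HF free libraries. It had 65.7, 55.5 and 14.8 CPM in Veh light and 50.7, 65.9 and 16.6 CPM in Veh free libraries. Its free level was lower with HF in every tag, and the double difference was 0.63, 0.66 and 1.45 (fitted 0.92 ± 0.29, edgeR adjusted p = 0.974, and 0.61 without rep4). Cox6a2, the muscle form of a cytochrome oxidase subunit, had 22.0, 15.1 and 37.7 CPM in HF light and 27.6, 9.35 and 6.26 CPM in HF free libraries, against 0.19, 0.64 and 3.28 CPM in Veh light and 0.62, 0.85 and 6.40 CPM in Veh free libraries. Here too HF was far above Veh in 5 of 6 pairs, and the library labelled HF free rep4 was at its Veh level. Fam204a, Tmem184c, Dnttip2 and the tyrosine phosphatase gene Ptpn2 gave fitted values of 0.79 to 0.90, and 0.53 to 0.63 without rep4. Their double differences were 0.19 to 0.33 in untagged, 0.92 to 1.02 in rep2 and 1.05 to 1.41 in rep4.

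On the lower side, Ppp1r12b, a targeting subunit of myosin phosphatase (chr1:134754658-134955942), had 29.7, 16.8 and 6.14 CPM in HF light and 9.97, 5.13 and 4.34 CPM in HF free libraries, against 46.2, 24.7 and 27.7 CPM in Veh light and 6.44, 5.49 and 5.56 CPM in Veh free libraries. HF was below Veh in light in each tag, and the double difference was -1.22, -0.45 and -1.76 (fitted -1.17 ± 0.34, edgeR adjusted p = 0.974). Tecpr1, an autophagosome tethering protein, had 8.30, 11.5 and 9.84 CPM in HF light and 13.3, 27.6 and 17.1 CPM in HF free libraries, against 9.65, 9.72 and 12.996 CPM in Veh light and 7.06, 13.7 and 16.2 CPM in Veh free libraries. Its values of -1.08, -0.76 and -0.46 by tag were farther from 0 in untagged and rep2 than in rep4, and the fit without rep4 gave -0.996 ± 0.26 (edgeR adjusted p = 0.14). Ntn1, a guidance protein, gave -1.28, -1.38 and -0.87 by tag, and Aldh4a1, a mitochondrial enzyme of proline breakdown, gave -1.03, -1.25 and -0.84. Aldh4a1 had 3.71, 2.34 and 2.03 CPM in HF light and 4.71, 4.33 and 3.84 CPM in HF free libraries, against 8.51, 3.11 and 6.61 CPM in Veh light and 4.97, 2.07 and 6.30 CPM in Veh free libraries. Fcgrt, an Fc receptor, Ahdc1 and Fyco1 gave fitted values of -0.81 to -1.08, and -0.59 to -0.87 without rep4. Their double differences were -0.54 to -0.63 in untagged, -0.53 to -0.91 in rep2 and -1.30 to -1.48 in rep4. The genes at least 2-fold apart in every tag, named after their values were seen, included Als2cl, Elmo1, Gm15413, Gm37145 and mt-Co2 on the higher side and Ablim1 and Asap3 on the lower side. Als2cl and Elmo1 are among the 15 genes that were near silent in Veh, where counts of 0 to 8 set the vehicle split.

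Other lists gave no called gene in either direction. Of 21 immediate early genes, 20 were tested, with a median of -0.39 (-0.13, 0.01 and -0.83 by tag). Interferon genes (11 of 19 tested) had a median of -0.64 (0.25, -0.15 and -1.71), and inflammatory genes (22 of 24) one of -0.27 (0.06, -0.18 and -1.37). Isg15, a ubiquitin-like interferon product, gave -1.26 ± 0.57 (0.28, -1.14 and -2.36, and -0.52 without rep4). The complement gene C3 gave -0.99 ± 0.53 (-0.23, -0.23 and -2.52, and -0.28 without rep4). p53 targets (22 of 23) had a median of 0.23 (-0.08, 0.21 and 0.58), with Gadd45a, a growth arrest gene, at 1.00 ± 0.41 (0.16, 0.78 and 2.04, and 0.42 without rep4). The snoRNA host RNAs (14 of 15), which are degraded when ribosomes translate them, had medians of 0.02, 0.28 and 0.24, and Gas5 gave 0.49 ± 0.33 (0.01, 0.47 and 0.99, and 0.19 without rep4). Autophagy genes (27 tested) had a median of 0.03 (0.04, 0.10 and -0.17), and contractile genes (22) one of -0.13 (-0.11, -0.18 and -0.07). Nuclear oxidative phosphorylation genes (71) had a median of -0.01, which turned sign with mitochondrially encoded genes left out, and differed in sign by tag (0.20, -0.05 and -0.38). Nuclear noncoding RNAs (9 of 12) had one of -0.11 (-0.13, 0.45 and -0.50).

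Because halofuginone limits proline charging, tested genes were also ordered by the share of proline codons, over the 9603 with a complete coding sequence and at least 5 CPM in a group mean. Split into 5 equal bins, the median double difference of the lowest and the highest bin was 0.04 and 0.02 in untagged, 0.04 and -0.05 in rep2, and 0.24 and -0.08 in rep4. Spearman's rho across genes was -0.01, -0.10 and -0.15. The GC content of the coding sequence had larger values, with rho of 0.09, -0.26 and -0.27. Coding length showed rho of -0.13, -0.10 and 0.05 with the double difference. With the light-minus-free split itself, coding length had rho of 0.62 in HF and 0.62 in Veh of the untagged gradients, against 0.06 in HF and 0.10 in Veh of rep2 and 0.04 in HF and 0.00 in Veh of rep4. These are descriptions over genes that share libraries and base composition, and their part in the double differences was not tested.

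**Figure D5:**
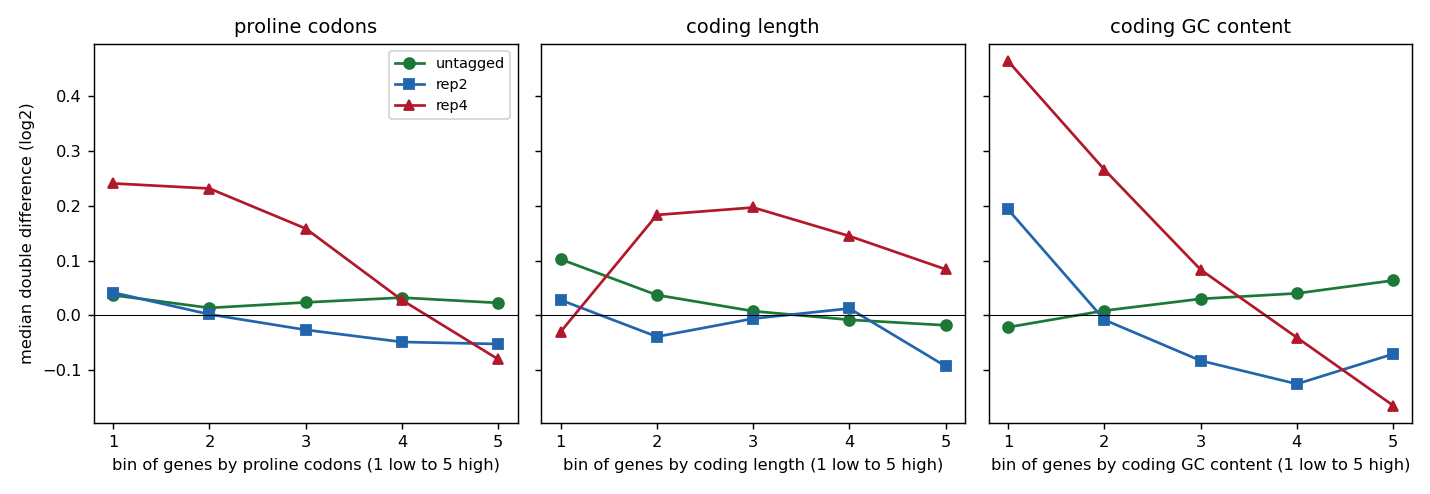
Median double difference (log2) in 5 equal bins of 9603 genes ordered by proline codon share, coding length and coding GC content, 1 line per tag. The rep4 line falls with GC content to -0.16 in the highest bin, the rep2 line is at 0.19 in the lowest bin, and the untagged line stays between -0.02 and 0.06 in the GC panel.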

How the data were processed

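The authors deposited 1 table of raw counts per gene symbol (49568 symbols) for 24 libraries. The submitters' processing notes name the build GRCm38.p5 and, with no order, Subread 1.5.0p3 (featureCounts), STAR 2.5.2b and Trimmomatic 0.36. For strand and multi-mapping reads, the sources used here give no setting. RNA was polyadenylated RNA from a TruSeq Stranded mRNA kit, per the labels' protocols. Columns were matched to groups by treatment and fraction numbers, not to single samples. Tables held 0 columns of other samples.

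From the deposited counts of 12 libraries (10300517 to 21571893 counts), edgeR 4.0.16 (R 4.3.3) fitted TMM-scaled counts after its default expression filter. The model held a block per gradient (treatment and tag), light against free, its interaction with pool definition, and light by halofuginone. It left 3 residual degrees of freedom with all 12 libraries, and fewer where a tag or gradient was left out. Deviations of same-tag light and free libraries correlated at 0.14 (HF rep4) to 0.68 across genes, against -0.45 to 0.15 for different tags. Those of same-tag HF and Veh libraries correlated at 0.39 to 0.89, against -0.72 to 0.23 for different tags. The light and free values and the shared tag are the basis of the block. The HF rep4 pair did not stand above the different-tag pairs. Values per tag are log2(TMM CPM + 0.5). DESeq2 1.42.0 was an alternative. Scripts were tested on counts simulated from the fitted means. There, the edgeR test called 12 of 50 genes given a double difference of log2 size 1, and 46 of 50 at log2 size 2. It also called 15 genes given no change. The 0 calls in the real data therefore do not show that 2-fold double differences are absent. Symbols were located in GENCODE M21 (GRCm38; 47240 found), and promoters came from RefSeq.

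Named genes were 19 fixed genes, the 8 genes in each direction with the smallest p, at least 5 CPM in a group mean and 1 sign in all tags, and the member of each list with the smallest p. Atf3, Qars, mt-Cytb, mt-Atp6, Ccdc174 and genes 2-fold apart in all tags were added after their values were seen. Taf7l was taken from the 15 genes on with halofuginone in total RNA and was picked by none of these rules. The members, lists and rules were chosen with earlier results of these data known. Some genes are not reported here.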

Additional observations from a re-analysis of the deposited data

Results flagged for a closer look

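In 7 of the 70 genes run through all alternatives, the HF effect ran one way in all 3 light libraries and the other way in all 3 ribosome-free libraries. The same held for 265 of all 13109 genes (2.02%), and most of the 7 had been chosen for having 1 sign in all tags. Tmem184c gave a double difference of 0.79, with HF effects of 0.05, 0.73 and 0.73 in light and -0.29, -0.19 and -0.33 in free (untagged, rep2, rep4). Pole2, a subunit of a replicative DNA polymerase, gave 0.38, with 0.02, 0.47 and 0.18 in light and -0.14, -0.11 and -0.21 in free. Ahdc1 gave -0.98, with -0.08, -0.14 and -0.62 in light and 0.54, 0.55 and 0.74 in free. Fyco1, an autophagosome transport adaptor, gave -1.08, with -0.38, -0.20 and -0.88 in light and 0.20, 0.70 and 0.60 in free. Ccdc174 gave 0.69, with 0.34, 0.52 and 0.34 in light and -0.29, -0.50 and -0.04 in free. Gm15413 gave 2.61, with 1.16, 0.68 and 0.27 in light and -0.25, -0.44 and -1.32 in free. Gm37145 gave 2.67, with 0.50, 0.98 and 0.34 in light and -1.03, -0.88 and -0.69 in free. The difference between the pools was tested by the interaction term of the edgeR fit and did not pass for any of the 7 (adjusted p = 0.974 each).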

How the results depend on the processing

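The counts of 0 genes higher and 0 lower held with DESeq2, median-of-ratios factors, mitochondrially encoded genes left out, a stricter filter, an offset per tag (331 genes at an unadjusted p under 0.05), the block without the pool definition term (62) and no replicate block (28), against 219 as reported with the replicate block. With no filter on low counts, 2 genes were higher (mt-Co2, mt-Atp6) and 1 lower (mt-Co3). Leaving out a tag or a gradient gave 0 to 5 higher and 0 to 6 lower, the highest without tag rep4. Without the HF rep4 gradient, 2 were higher and 1 lower. Leaving out the HF rep2 gradient left 0 calls, with 1534 genes at an unadjusted p under 0.05.

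Leaving out rep4 libraries turned the sign of several named genes. Over these settings the double difference ranged from -0.16 to 0.70 for Eprs, from -0.36 to 0.094 for Atf4, from -0.12 to 0.81 for Ddit3, from -0.11 to 0.83 for Asns, from -0.82 to 1.46 for Slc7a11, from -0.16 to 0.34 for Chac1, from -1.81 to 0.052 for Col6a1, from -0.18 to 1.06 for Fn1, from -0.082 to 1.00 for Atf3 and from -0.15 to 0.026 for Rpl3. None of the others among the 70 genes run through all alternatives turned its sign in these settings or under the other alternatives run. Taf7l and the nuclear copies of mitochondrial genes named above were not among the 70. Of these copies, Gm10925 went from 0.08 in the full fit to -5.09 without tag rep4. For mt-Co3, the fit without the HF rep2 gradient gave -10.88 (adjusted p = 0.436). The list medians ranged from -0.09 to 0.67 for the amino acid response and from -1.59 to -0.16 for cholesterol synthesis. The median of amino acid transporters turned sign between scalings. The medians of cytosolic ribosomal proteins and nuclear oxidative phosphorylation kept their sign between scalings. They turned sign with mitochondrially encoded genes left out. Over all settings, 25 list medians moved by more than their spread over tags and 433 did not, and with a pseudocount of 2 CPM, 1 of the medians per tag did. This spread includes rep4 and was wide for some lists (SD 1.51 for cholesterol synthesis and 0.72 for the amino acid response). A median that turned sign or lost most of its size without rep4 could thus count as not moved.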
